A study of Mus musculus with 6 samples.

Results

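The genes of cholesterol synthesis, uptake and sterol control were examined by RNA-seq in lines of CT26, a colon carcinoma cell line from the Balb/c mouse. The 31 genes came from a list of symbols drawn up with earlier results of these data known, and all 31 were found among the 53801 genes measured. They were ordered by role into 8 genes of the mevalonate steps, 12 of the sterol branch, 4 of the control of SREBP, 4 of sterol uptake, transport and storage, and 3 of the liver X receptor (LXR) and cholesterol efflux.

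The study compared resistant clones with the line they came from, in 3 groups of 2 libraries each, named replicates A and B. The parental group was a bulk CT26 population that carried a retroviral barcode library, had grown as tumors in Balb/c mice, and was taken back into culture and selected with puromycin. B04 and B64 were each a single clone, expanded from 1 cell of such tumors, which carried the same kind of barcode and puromycin marker and resisted immune checkpoint blockade (ICB). By the study's own account the clones were obtained after ICB had been given, so differences that came before that treatment and those that came with it cannot be told apart. Each resistant line is 1 clone, so a difference between a clone and the parental line cannot be told apart from the difference any clone may have from its bulk population. The sample titles speak of tumors, whereas the methods describe duplicates of cultured lines. Nothing states whether the duplicates were separate cultures, so p-values measure only the spread between these libraries, which may be technical.

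Library totals ranged from 19409204 to 23472012 expected counts. The 31 genes took a share of counts of 0.217% and 0.214% for parental, 0.285% and 0.285% for B04, and 0.236% and 0.248% for B64. Gene length minus effective length, a measure of fragment length, separated 3 long-fragment libraries, both parental ones (277 bases each) and B04 replicate A (272 bases), from 3 short-fragment ones, B04 replicate B (225 bases) and both of B64 (221 and 246 bases). Fragment length and line therefore cannot be told apart between the parental line and B64, except through the B04 libraries, which held both kinds. Of 7 epithelial markers only 1, Krt18, reached 1 TPM (a transcript level scaled to gene length and library total) in any library. Krt18 was at 12.31 and 13.87 TPM for parental, 16.09 and 14.06 TPM for B04, and 20.98 and 22.44 TPM for B64. Epcam, Cdh1, Krt8, Krt19, Cdx2 and Vil1 stayed under 1 TPM in every library. The part of the Krt18 difference in the results was not tested. The 8 fibroblast markers summed to 2410 and 2451 TPM for parental, 3760 and 4143 TPM for B04, and 2820 and 2765 TPM for B64. Of these 8, 5 reached 1 TPM in some library. Vim, at 2042 to 3799 TPM, made up most of this sum. Col1a2 was at 348 and 328 TPM for parental, 316 and 323 TPM for B04, and 359 and 334 TPM for B64. Pdgfra, Pdgfrb and Col1a1 lay between 1.48 and 10.54 TPM. Lum was at 0, Thy1 was at most 0.04 TPM and Dcn was under 1 TPM in every library. The fibroblast sum was thus highest in B04, as was Vim, while Col1a2 was not, and the part of this sum in the results was not tested. Leukocyte markers (11 genes, of which 4 were at 0 in every library and only Cd68 reached 1 TPM) had a summed level of 11.3 and 11.1 TPM for parental, 12.2 and 10.6 TPM for B04, and 40.3 and 36.7 TPM for B64, and the part of this difference in the results below was not tested. In bulk libraries, fewer cells of a type and less RNA per cell cannot be told apart.

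Cells make cholesterol from acetyl-CoA through mevalonate, farnesyl diphosphate, squalene and lanosterol, and the route branches at farnesyl diphosphate toward other isoprenoids. The transcription factor SREBP2 raises most genes of this route when sterol in the endoplasmic reticulum is low. SCAP escorts SREBP2 to the Golgi for cleavage, and the INSIG proteins hold both back when sterol is plentiful. LXR, a receptor for oxidised sterols, acts on the opposite side and raises genes of cholesterol efflux. Rapidly growing cells need sterol for new membrane.

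Promoter windows were read for the members as a description, whether or not a gene was called in B04. The RefSeq promoter table used here (GRCm38.p6) gave windows, from 250 bases before to 50 after the start of transcription, for 25 of the 31 genes, 31 windows in all because some genes have several, and these were searched on both strands for TCACNCCAC, the core of the sterol response element bound by SREBP, for CCAAT, the box bound by NF-Y, and for GGGCGG, the box bound by Sp1. The sterol core was matched in 1 of the 31 windows (3.2%), that of Hmgcs1, against 1.24% of all 32851 windows in the table. CCAAT was matched in 21 of the 31 windows (67.7%), against 37.4% of all windows, and GGGCGG in 25 (80.6%), against 35.7%. Counted by gene, at least 1 window held CCAAT in 21 of the 25 genes and GGGCGG in 22. These included Pmvk, Ggps1, Lss, Tm7sf2, Msmo1, Hsd17b7, Sc5d and Mylip for CCAAT, none of them called in B04 by DESeq2. Acat2, Abca1, Nr1h2 and Scap held no CCAAT. Fdps, Fdft1, Sqle, Stard4, Npc1 and Abcg1 had no window. The windows of the whole table were not limited to expressed genes, and a link between motif and call was not tested. A match is a description of the letters and not a site, and its absence says only that the letters do not occur in the window.

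The windows below are the upstream parts for the 4 genes with a single usable window and the smallest adjusted p among those higher in B04, and for the 1 such gene lower in B04, Soat1. The choice was made after the values were seen. Each is written from its upstream end toward the start of transcription, with bases inside the annotated gene left out, and capitals mark TCACNCCAC and CCAAT on either strand (the latter then reads ATTGG).
Acat2 (chr17:12960748-12960975, minus strand): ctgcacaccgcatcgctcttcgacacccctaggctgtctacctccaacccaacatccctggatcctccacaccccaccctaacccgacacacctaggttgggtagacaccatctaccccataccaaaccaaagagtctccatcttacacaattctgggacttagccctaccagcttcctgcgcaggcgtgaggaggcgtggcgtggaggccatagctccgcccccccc
Hmgcs1 (chr13:119690101-119690350, plus strand): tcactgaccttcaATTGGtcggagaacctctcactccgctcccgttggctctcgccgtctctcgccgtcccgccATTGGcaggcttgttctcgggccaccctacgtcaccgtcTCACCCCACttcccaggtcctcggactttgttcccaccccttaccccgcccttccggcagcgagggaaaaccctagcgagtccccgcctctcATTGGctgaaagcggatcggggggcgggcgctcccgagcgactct
Ebp (chrX:8193513-8193762, minus strand): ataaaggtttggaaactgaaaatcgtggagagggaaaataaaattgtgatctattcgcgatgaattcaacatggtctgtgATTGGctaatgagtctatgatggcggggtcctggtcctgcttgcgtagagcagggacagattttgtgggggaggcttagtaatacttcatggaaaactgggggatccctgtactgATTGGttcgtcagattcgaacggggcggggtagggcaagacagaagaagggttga
Insig1 (chr5:28071162-28071362, plus strand): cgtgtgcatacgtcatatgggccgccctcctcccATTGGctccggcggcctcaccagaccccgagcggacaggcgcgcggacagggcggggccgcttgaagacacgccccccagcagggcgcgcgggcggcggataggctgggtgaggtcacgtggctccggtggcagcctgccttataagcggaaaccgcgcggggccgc
Soat1 (chr1:156474332-156474578, minus strand): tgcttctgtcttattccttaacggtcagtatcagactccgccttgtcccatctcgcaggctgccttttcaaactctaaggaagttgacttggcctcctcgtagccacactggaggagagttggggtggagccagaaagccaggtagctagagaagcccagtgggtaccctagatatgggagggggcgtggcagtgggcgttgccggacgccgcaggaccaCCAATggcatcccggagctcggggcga
Hmgcs1 holds the sterol core 137 bases before its start beside 3 CCAAT boxes in the part shown. Ebp holds 2 CCAAT boxes, and Insig1 and Soat1 hold 1 each. Acat2, whose rise in B04 was the largest among the 31 genes, holds neither motif in the letters shown.

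To ask how sterol genes differed between B04 and the parental line, all genes were fitted together. In B04, 18 of the 31 genes were higher and 3 were lower than in the parental line, against 11.2% of all 13218 genes tested called higher and 12.9% called lower (DESeq2, adjusted p under 0.05). The synthesis enzymes accounted for 13 of the 18, and none of the 20 enzymes was called lower by DESeq2, nor had an unadjusted p under 0.05 in that direction. By the quasi-likelihood test of edgeR, 15 enzymes were higher and 1, Ggps1, was lower. Over the 31 genes, limma called 18 higher and 0 lower on log2(TPM + 1) and 19 and 0 on log2(TPM + 0.1). On either scale, 1 was lower at an unadjusted p under 0.05. The effective-length offset left 16 higher and 1 lower. Of all genes tested, edgeR called 2101 of 12365 higher and 2180 lower, and the offset 1188 of 12339 and 1290. On log2(TPM + 1), limma called 1330 of 11153 higher and 636 lower, and on log2(TPM + 0.1) 1326 and 642. All genes had medians of 0.062 and 0.067 on these 2 scales. By DESeq2, the median log2 fold change of the 20 enzymes was 0.45, while that of all genes tested was 0.002. The largest rises were those of Acat2 (2.09-fold), Sqle (1.76-fold), Stard4 (1.73-fold), Ebp (1.67-fold) and Hmgcs1 (1.67-fold). The falls were those of Soat1 (0.68-fold the parental level), Npc1 (0.76-fold) and Abca1 (0.78-fold).

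In B64, 13 of the 31 genes were higher than in the same parental libraries and none was lower (none at an unadjusted p under 0.05 either, by DESeq2 or edgeR), against 8.87% of all genes called higher and 7.45% called lower. The enzymes accounted for 9 of the 13, and their median log2 fold change was 0.22. The largest was that of Acat2 (1.36-fold), followed by Nsdhl (1.31-fold), Idi1 (1.31-fold) and Npc1 (1.30-fold). This count changed with single libraries and with the handling of fragment length. The count of 13 fell whenever a parental or B64 library was left out, and so did the number called over the whole table. It also fell to 8 with effective length as an offset and to 6 by limma on TPM. In DESeq2 with fragment-length class as a block it fell to 0, where 5 had an unadjusted p under 0.05. The edgeR test without that block called 15. The number called over the whole table moved as well. It was 2157 of 13218 genes tested in the main fit and 1674 of 12708 with the offset. By limma on log2(TPM + 1) it was 1258 of 11153, with the block 340 of 12855, and by edgeR 3038 of 12365.

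Compared directly, 14 of the 31 genes were lower and 2 were higher in B64 than in B04, against 11.1% and 13.1% of all 12855 genes tested called lower and higher. The 14 comprised 10 synthesis enzymes, Srebf2, Scap, Insig1 and Stard4, and the 2 were Npc1 and Soat1. No enzyme was called higher in B64 by DESeq2 (1 had an unadjusted p under 0.05), and edgeR called 1, Msmo1. By their calls, 7 genes were called higher in B04 and lower again in B64 against B04 with no call against the parental line, 6 were higher in both clones but less so in B64, and 5 were higher in both with no difference called between the clones. The comparisons of B04 and B64 with the parental line share the 2 parental libraries.

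**Figure D1:**
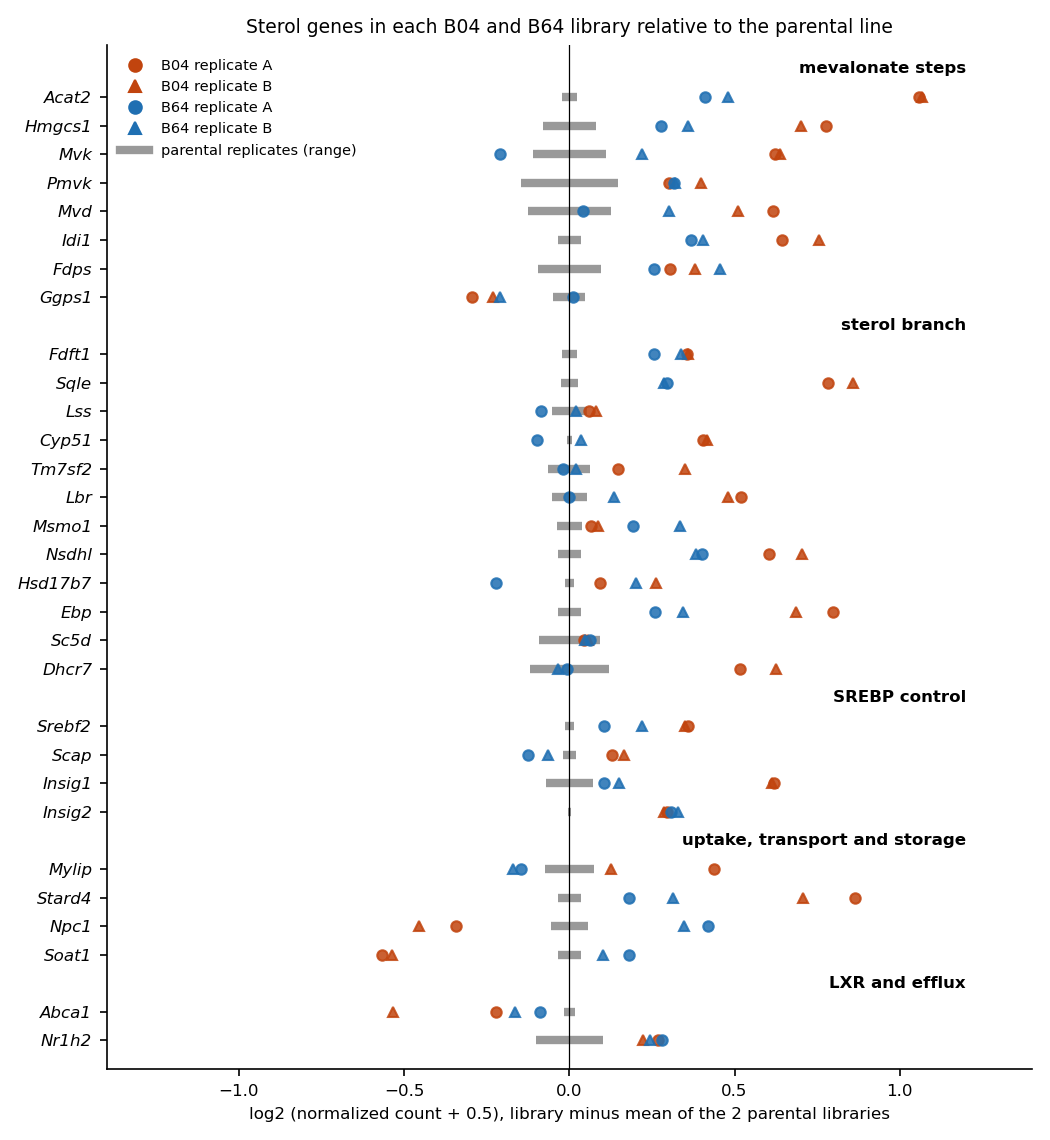
Each point is 1 B04 library (orange) or B64 library (blue), plotted as the log2 of its normalized count plus 0.5 minus the mean of the 2 parental libraries, for 30 of the 31 genes (Abcg1, near 0 counts, is left out). Grey bars span the 2 parental libraries. Most synthesis and SREBP genes lie to the right of the parental bar in B04, and for Acat2, Hmgcs1, Idi1, Sqle, Ebp and Srebf2 the B64 points lie between, while Npc1, Soat1 and Abca1 lie to the left in B04.

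The first enzymes build mevalonate. Acat2, the cytosolic thiolase that joins acetyl-CoA units (and not the sterol acyltransferase sometimes given that name), had normalized counts of 1125 and 1162 for parental, 2382 and 2395 for B04, and 1520.0 and 1594 for B64. The 3 groups did not overlap, with B04 highest and B64 between. Acat2 rose by 1.06 ± 0.083 (SE, adjusted p = 7.46e-35) on the log2 scale in B04 and by 0.45 ± 0.085 (SE, adjusted p = 4.56e-06) in B64, and B64 was below B04 by 0.62 ± 0.082 (SE, adjusted p = 2.66e-12). Hmgcs1, the cytosolic HMG-CoA synthase, had 1415 and 1266 for parental, 2295 and 2176 for B04, and 1621 and 1716 for B64. It showed the same order of groups as Acat2. Hmgcs1 rose by 0.74 ± 0.089 (SE, adjusted p = 6.33e-15) in B04 and by 0.32 ± 0.090 (SE, adjusted p = 0.00471) in B64, with a difference of -0.42 ± 0.088 (SE, adjusted p = 2.28e-05) between the clones.

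The next enzymes turn mevalonate into isoprenoid units. Mvk, mevalonate kinase, had 682 and 795 for parental, 1133 and 1146 for B04, and 637 and 858 for B64. Its B04 libraries stood above the other 4, and the B64 libraries lay on either side of the parental ones. Mvk rose by 0.62 ± 0.14 (SE, adjusted p = 5.18e-05) in B04, was 0.018 ± 0.14 (SE, adjusted p = 0.967) in B64, and differed by -0.61 ± 0.14 (SE, adjusted p = 9.29e-05) between the clones. Pmvk, phosphomevalonate kinase, had 417 and 511 for parental, 568 and 609 for B04, and 575 and 576 for B64. Every clone library lay above the parental ones, but neither log2 fold change, 0.34 ± 0.14 (SE, adjusted p = 0.0618) in B04 and 0.31 ± 0.14 (SE, adjusted p = 0.13) in B64, passed the test by DESeq2. Both were called by edgeR (adjusted p = 0.0174 in B04 and 0.0394 in B64). Mvd, the decarboxylase that follows, had 467 and 556 for parental, 782 and 726 for B04, and 524 and 628 for B64. B04 stood apart from the overlapping parental and B64 libraries, and Mvd rose there by 0.56 ± 0.14 (SE, adjusted p = 6.33e-04) and differed by -0.39 ± 0.14 (SE, adjusted p = 0.0276) between the clones.

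Idi1, the isomerase that interconverts the isoprenoid units, had 857 and 898 for parental, 1369.9 and 1479 for B04, and 1133 and 1159.6 for B64. The 3 groups were apart, with B64 between. Idi1 rose by 0.70 ± 0.10 (SE, adjusted p = 4.61e-11) in B04 and by 0.39 ± 0.10 (SE, adjusted p = 0.00143) in B64, and B64 was below B04 by 0.31 ± 0.10 (SE, adjusted p = 0.00794). Fdps, which makes farnesyl diphosphate at the branch point, had 3428 and 3910.3 for parental, 4517 and 4764 for B04, and 4369.8 and 5028 for B64. Here the clones overlapped each other and both lay above the parental libraries. Fdps rose by 0.34 ± 0.082 (SE, adjusted p = 3.89e-04) in B04 and by 0.36 ± 0.082 (SE, adjusted p = 2.52e-04) in B64, and the difference between the clones was 0.018 with a 95% interval of -0.14 to 0.18. Ggps1, which leads farnesyl diphosphate away from sterol toward geranylgeranyl groups, had 641 and 599.5 for parental, 505 and 528 for B04, and 624 and 536 for B64. It was the only enzyme of the 20 with a fold change below 0 in B04, -0.26 ± 0.14 (SE, adjusted p = 0.154), and was not called in any comparison by DESeq2.

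**Figure D2:**
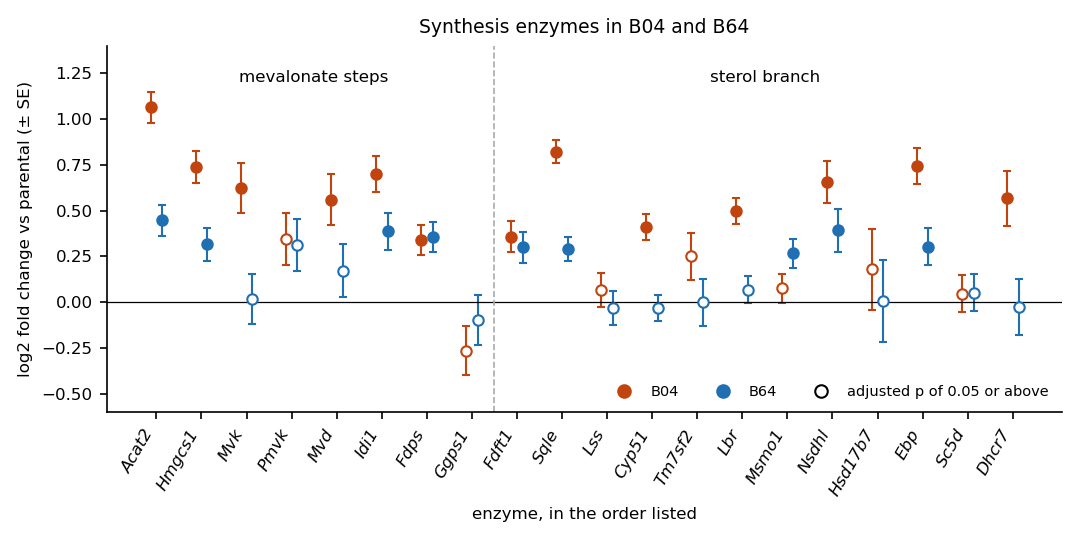
Log2 fold change against the parental line with its SE (vertical bars) for the 20 synthesis enzymes in B04 (orange) and B64 (blue). Filled points have an adjusted p under 0.05 and open points do not. Acat2 and Sqle are the highest points in B04, whereas Fdps and Fdft1 are at nearly the same height in both clones.

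The sterol branch opens with squalene. Fdft1, squalene synthase, had 1375 and 1333 for parental, 1731 and 1736 for B04, and 1617 and 1712 for B64. Both clones lay above the parental libraries, by 0.36 ± 0.085 (SE, adjusted p = 2.96e-04) in B04 and 0.30 ± 0.086 (SE, adjusted p = 0.00529) in B64, and their difference was -0.059 with a 95% interval of -0.23 to 0.11. Of the exon bases of Fdft1, 18.3% also belong to Ctsb on the other strand, whose counts were 12226 and 11846 for parental, 11189 and 11736 for B04, and 15923 and 15608 for B64. The sources used here do not say whether counting used strand, so reads of the 2 genes may not be separable there. Sqle, squalene epoxidase, an early rate-limiting step of this branch, had 3286 and 3399.7 for parental, 5752 and 6053 for B04, and 4104 and 4072 for B64. The groups were apart with B04 highest. Sqle rose by 0.82 ± 0.063 (SE, adjusted p = 3.23e-36) in B04 and by 0.29 ± 0.064 (SE, adjusted p = 1.07e-04) in B64, and was lower by 0.53 ± 0.063 (SE, adjusted p = 1.82e-15) in B64 than in B04.

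Lss, lanosterol synthase, closes the ring system and had 1435 and 1333 for parental, 1439 and 1462 for B04, and 1304 and 1402 for B64. It passed no test although its neighbours in the route did in B04, with a 95% interval of -0.11 to 0.25 in B04 and -0.21 to 0.15 in B64. Other scales gave larger B04 values that were not called either. These were 0.33 (adjusted p = 0.179) with the effective-length offset and 0.41 (adjusted p = 0.183) by limma on log2(TPM + 1). The effective length of Lss was 1728 and 2277 bases in the 2 parental libraries. Cyp51, lanosterol demethylase, had 2948 and 2916 for parental, 3884 and 3911 for B04, and 2738 and 3003 for B64. B04 alone was raised, by 0.41 ± 0.070 (SE, adjusted p = 1.32e-07), and B64 was -0.030 ± 0.071 (SE, adjusted p = 0.861) against the parental line and -0.44 ± 0.071 (SE, adjusted p = 1.20e-08) against B04. Both Lbr and Tm7sf2 encode reductases for the product of that step. Lbr, which is also a protein of the inner nuclear membrane, had 3314 and 3084 for parental, 4579 and 4456 for B04, and 3198 and 3507 for B64. Lbr rose by 0.50 ± 0.072 (SE, adjusted p = 1.56e-10) in B04 and was below it by 0.43 ± 0.072 (SE, adjusted p = 5.04e-08) in B64. Tm7sf2 had 649.6 and 595 for parental, 688 and 793 for B04, and 614 and 629.8 for B64. Its fold change in B04, 0.25 ± 0.13 (SE, adjusted p = 0.152), did not pass by DESeq2 but was called by edgeR (adjusted p = 0.0409). Some exon bases of these genes also belong to other genes with counts, 12.1% of Tm7sf2 to Vps51, 9.2% of Lbr to Dnah14, 5.4% of Ggps1 to Arid4b and 3.8% of Cyp51 to Akap9.

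The later enzymes remove methyl groups and move double bonds. Msmo1, the methyl sterol oxidase, had 2207 and 2097 for parental, 2251 and 2287 for B04, and 2460.1 and 2717 for B64. It was the only enzyme called in B64, at 0.27 ± 0.080 (SE, adjusted p = 0.0077), and not in B04, at 0.076 ± 0.080 (SE, adjusted p = 0.58). The difference between the clones, 0.19 ± 0.080 (SE, adjusted p = 0.0648), did not pass by DESeq2 but was called by edgeR (adjusted p = 0.0389). Nsdhl, the dehydrogenase that acts after it, had 569.5 and 598 for parental, 886 and 951 for B04, and 770.2 and 761 for B64. Both clones were above the parental libraries, by 0.65 ± 0.12 (SE, adjusted p = 2.90e-07) in B04 and 0.39 ± 0.12 (SE, adjusted p = 0.00764) in B64. Hsd17b7, the keto reductase of the same step, was the least abundant enzyme on the TPM scale, at 2.37 and 2.52 TPM in the parental libraries, and had normalized counts of 189.8 and 194 for parental, 204 and 230.0 for B04, and 164 and 221 for B64. Its 2 B64 libraries fell on either side of the parental ones, and it passed no test.

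Ebp, the isomerase that follows, had 867 and 911 for parental, 1544 and 1429 for B04, and 1064 and 1128 for B64. The groups were apart, B04 highest, and Ebp rose by 0.74 ± 0.10 (SE, adjusted p = 3.18e-12) in B04 and by 0.30 ± 0.10 (SE, adjusted p = 0.0211) in B64, with -0.44 ± 0.10 (SE, adjusted p = 8.99e-05) between the clones. Sc5d, a desaturase, had 1239 and 1089 for parental, 1197 and 1208 for B04, and 1212 and 1201 for B64. These libraries overlapped in every comparison, and the 95% interval was -0.15 to 0.24 in B04 and -0.14 to 0.25 in B64. Dhcr7, which catalyses a final reduction to cholesterol, had 418 and 354 for parental, 550.0 and 592 for B04, and 383 and 375 for B64. B04 alone was raised, by 0.57 ± 0.15 (SE, adjusted p = 0.00126), and B64 was -0.025 ± 0.15 (SE, adjusted p = 0.958) against the parental line and -0.59 ± 0.15 (SE, adjusted p = 7.51e-04) against B04.

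Summed over the 8 genes of the mevalonate steps, normalized counts were 9032 and 9697 for parental, 13552 and 13823 for B04, and 11004 and 12095 for B64. The 12 genes of the sterol branch summed to 18498 and 17901, 24706 and 25109, and 19627 and 20727 in the same order. Both sums were apart in the 3 groups with B64 between. On the length-scaled TPM level, which allows genes to be compared, Fdps was the highest enzyme in the parental line at 191 ± 12.9 TPM (SD, n = 2) and Sqle next at 67.8 ± 0.417 TPM. In B04 the same 2 led with 249 ± 4.79 and 125 ± 5.17 TPM.

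Of the 4 control genes, 3 were higher in B04, where 11.2% of all genes were, and 2 in B64, where 8.87% were. Srebf2, which encodes SREBP2, had 6408 and 6524 for parental, 8291 and 8236 for B04, and 6956 and 7529.8 for B64. Its groups were apart with B64 between. Srebf2 rose by 0.35 ± 0.059 (SE, adjusted p = 5.36e-08) in B04 and by 0.16 ± 0.059 (SE, adjusted p = 0.0382) in B64, and B64 was below B04 by 0.19 ± 0.059 (SE, adjusted p = 0.00781). The B64 call held in only 2 of 16 alternatives and was lost with TMM factors (0.15, adjusted p = 0.0619), among others, and when any 1 of the 6 libraries was left out (at the lowest value, without B64 replicate B, 0.11, adjusted p = 0.557). Scap, the escort of SREBP, had 2269 and 2332 for parental, 2518 and 2579 for B04, and 2108 and 2197 for B64. All B64 libraries were below and all B04 libraries above the parental ones. Only the direct difference between the clones, -0.24 ± 0.075 (SE, adjusted p = 0.00682), passed the test by DESeq2. The value in B04, 0.15 ± 0.074 (SE, adjusted p = 0.145), was called by edgeR (adjusted p = 0.0496).

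Insig1, which retains SCAP and is itself a target of SREBP, had 1622 and 1470.2 for parental, 2371 and 2362 for B04, and 1659 and 1713 for B64. B04 stood above the other groups, and Insig1 rose there by 0.61 ± 0.083 (SE, adjusted p = 7.52e-12), was 0.12 ± 0.085 (SE, adjusted p = 0.379) in B64, and was lower by 0.49 ± 0.084 (SE, adjusted p = 9.61e-08) in B64 than in B04. Insig2, its paralog, had 990.2 and 985 for parental, 1212 and 1205 for B04, and 1221 and 1241 for B64. It was raised in both clones, by 0.29 ± 0.10 (SE, adjusted p = 0.0119) in B04 and 0.32 ± 0.10 (SE, adjusted p = 0.00808) in B64, with a 95% interval of -0.16 to 0.21 for the difference between them. On the TPM scale the parental level of Srebf2 was 88.3 ± 1.25 TPM (SD, n = 2), above Insig2 at 63.1 ± 2.46, Scap at 41.5 ± 5.46 and Insig1 at 32.9 ± 3.32 TPM.

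Genes that move and store sterol did not follow the enzymes as a group. Stard4, a cytosolic sterol carrier and a known SREBP target, had 1226 and 1168 for parental, 2179 and 1952 for B04, and 1357 and 1489 for B64. It followed the enzymes, with 0.79 ± 0.094 (SE, adjusted p = 4.09e-15) in B04, 0.25 ± 0.10 (SE, adjusted p = 0.0542) in B64 and -0.54 ± 0.094 (SE, adjusted p = 1.95e-07) between the clones. Soat1, the acyltransferase that turns cholesterol into stored esters, had 2926 and 2783 for parental, 1928 and 1969 for B04, and 3233 and 3060.5 for B64. Its B04 libraries were far below the other 4. Soat1 fell by 0.55 ± 0.074 (SE, adjusted p = 4.13e-12) in B04, was 0.14 ± 0.073 (SE, adjusted p = 0.203) in B64, and differed by 0.69 ± 0.074 (SE, adjusted p = 6.71e-19) between the clones.

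Soat1 read differently on the TPM scale, at 90.7 and 89.2 TPM for parental, 55.4 and 88.5 TPM for B04, and 128 and 119 TPM for B64. The 2 B04 libraries agreed in counts and disagreed in TPM, where effective length was 1836 bases in replicate A and 1204 bases in replicate B. By limma on log2(TPM + 1) the fall in B04 was -0.36, adjusted p = 0.266, and with effective length as an offset it was -0.40, adjusted p = 0.0842, so it was no longer called. The difference between the clones stayed called in all 16 alternatives.

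Npc1, which exports cholesterol from lysosomes, had 1715 and 1588 for parental, 1301 and 1203 for B04, and 2208 and 2101 for B64. It moved in opposite directions in the clones. Npc1 fell by 0.40 ± 0.089 (SE, adjusted p = 8.93e-05) in B04 and rose by 0.38 ± 0.088 (SE, adjusted p = 2.09e-04) in B64, a difference of 0.78 ± 0.089 (SE, adjusted p = 6.94e-17). Of its exon bases, 4.5% are shared with Rmc1 on the other strand, which had 608 and 575 for parental, 421 and 454 for B04, and 629 and 635 for B64. Mylip, a ubiquitin ligase that removes lipoprotein receptors and an LXR target, had 200.3 and 222 for parental, 286 and 230.0 for B04, and 190.3 and 187 for B64. Its differences, 0.29 ± 0.21 (SE, adjusted p = 0.357) in B04 and -0.45 ± 0.21 (SE, adjusted p = 0.106) between the clones, did not pass by DESeq2. The latter was called by edgeR (adjusted p = 0.0232).

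**Figure D3:**
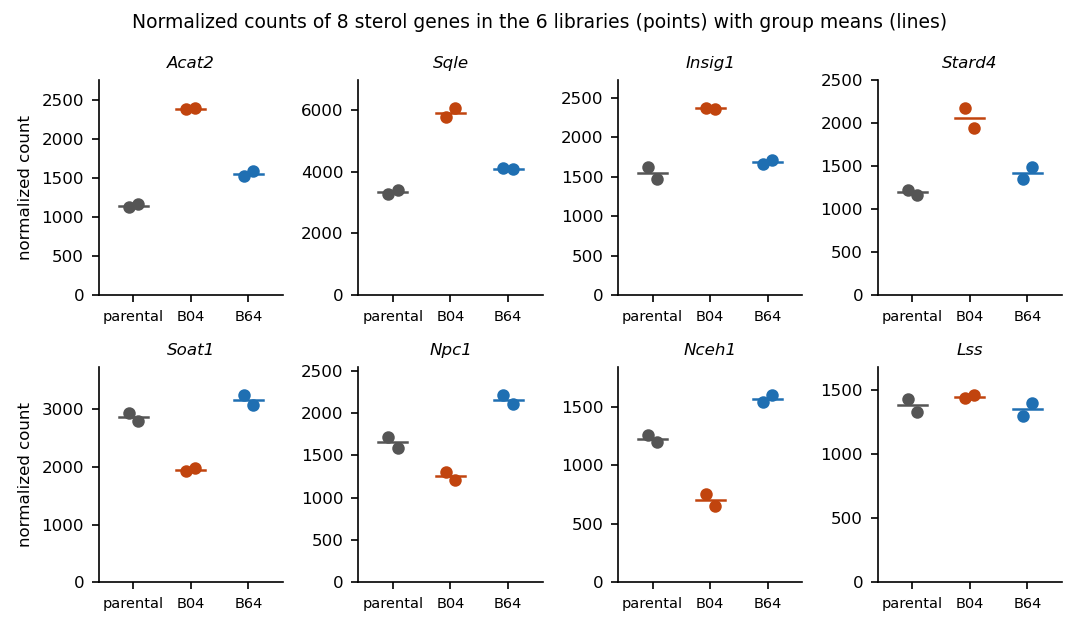
Normalized counts in the 6 libraries (points) with the mean of each group (line) for 8 genes, each panel with its own axis from 0. Acat2, Sqle, Insig1 and Stard4 are highest in B04, Soat1, Npc1 and Nceh1 are lowest in B04, and the Lss libraries lie close together, with B64 and parental overlapping.

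The LXR genes showed small differences. Abca1, the transporter that loads cholesterol onto apolipoproteins, had 581 and 569 for parental, 492 and 397 for B04, and 540.3 and 513 for B64. It was lower by 0.37 ± 0.14 (SE, adjusted p = 0.0471) in B04 and was -0.13 ± 0.14 (SE, adjusted p = 0.673) in B64. That call held in only 4 of 16 alternatives, and by limma on log2(TPM + 1) the value was 0.004, adjusted p = 0.993. Nr1h2, which encodes LXR beta, had 1418 and 1635 for parental, 1835 and 1777 for B04, and 1847 and 1802 for B64. It was higher by 0.24 ± 0.091 (SE, adjusted p = 0.0342) in B04 and by 0.26 ± 0.091 (SE, adjusted p = 0.0327) in B64, and each call held in 6 of 16 alternatives. Abcg1, another efflux transporter, had 10.5 and 7.5 for parental, 2.7 and 4.1 for B04, and 2.3 and 5.3 for B64, close to the limit of 3 counts that a count of 0 allows, and no fold is given.

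**Figure D4:**
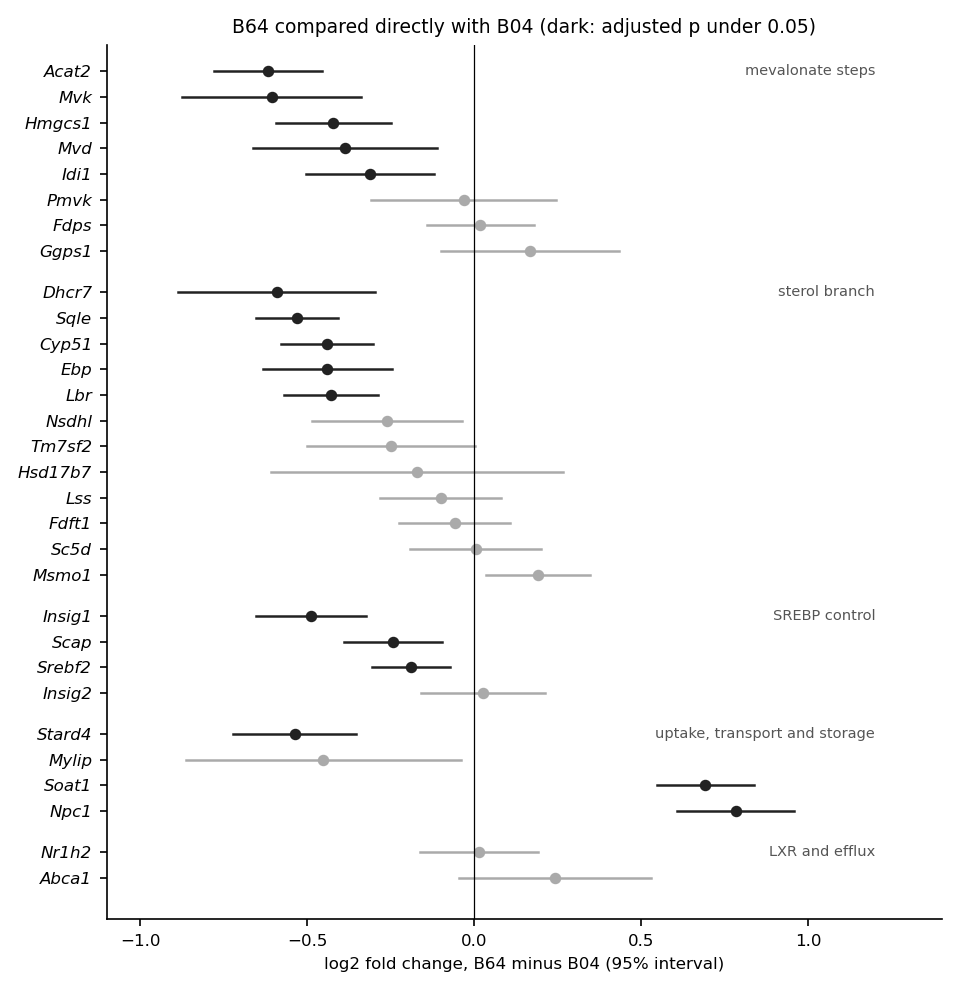
Log2 fold change of B64 against B04 with its 95% interval (horizontal bars) for 30 of the 31 genes (Abcg1 left out), ordered within each role. Dark points have an adjusted p under 0.05. The called enzymes and SREBP genes lie left of 0, and Soat1 and Npc1 lie to the right.

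Other genes of sterol handling were read from a list of 42 matched genes that are not among the 31, of which 39 were tested. In B04, 7 were higher and 6 lower, where 11.2% and 12.9% of all genes were, and in B64, 9 were higher and 2 lower, where 8.87% and 7.45% were. Lrp1, a large endocytic receptor for lipoproteins and many other ligands, had 13056 and 13451 for parental, 9103 and 7898 for B04, and 5319 and 5584 for B64. It fell by 0.64 ± 0.068 (SE, adjusted p = 4.91e-19) in B04 and by 1.28 ± 0.069 (SE, adjusted p = 2.93e-74) in B64. Nceh1, which frees cholesterol from its esters, had 1258 and 1199 for parental, 752 and 656 for B04, and 1538 and 1599 for B64. Like Soat1 and Npc1 it was lowest in B04, with -0.80 ± 0.10 (SE, adjusted p = 5.61e-13) there, and it was higher in B64 than in B04 by 1.16 ± 0.10 (SE, adjusted p = 6.59e-27).

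Cyb5r3, an electron donor for sterol oxidation, rose by 0.42 ± 0.053 (SE, adjusted p = 5.04e-14) in B04 and by 0.48 ± 0.053 (SE, adjusted p = 1.28e-17) in B64. In B04, Erlin1, an endoplasmic reticulum protein of sterol-regulated degradation, was -0.36 ± 0.052 (SE, adjusted p = 3.34e-10). Nus1, a subunit of the enzyme that starts dolichol synthesis, was -0.49 ± 0.074 (SE, adjusted p = 1.03e-09) there. Vldlr, the receptor of very low density lipoprotein, was 0.33 ± 0.060 (SE, adjusted p = 6.48e-07). Erlin1 was also lower in B64, at -0.16 ± 0.052 (SE, adjusted p = 0.0148), and Vldlr higher, at 0.16 ± 0.060 (SE, adjusted p = 0.0497, just under the threshold). Each had the same sign in both clones. In B64, Npc2, the lysosomal partner of Npc1, was 0.45 ± 0.061 (SE, adjusted p = 7.12e-12). Tmem97, an endoplasmic reticulum protein that binds Npc1, was 0.34 ± 0.071 (SE, adjusted p = 4.60e-05), and the electron donors Cyb5b and Por were 0.31 ± 0.062 (SE, adjusted p = 1.59e-05) and 0.25 ± 0.056 (SE, adjusted p = 1.85e-04). Por was also higher in B04, at 0.28 ± 0.056 (SE, adjusted p = 5.04e-06). With Lrp1 and Nceh1, these genes were the 6 with the smallest adjusted p in each clone. Soat2 and Srebf1 were added after their values were seen, because one is the paralog of Soat1 and the other of Srebf2. Soat2 had 748 and 760.4 for parental, 980.5 and 1092 for B04, and 931 and 958 for B64, with 0.46 ± 0.11 (SE, adjusted p = 2.63e-04) in B04 and 0.33 ± 0.11 (SE, adjusted p = 0.0231) in B64. Srebf1 had 2996 and 3278 for parental, 3934 and 3771 for B04, and 3071 and 3297 for B64, with 0.30 ± 0.073 (SE, adjusted p = 5.29e-04) in B04 and -0.28 ± 0.074 (SE, adjusted p = 0.00149) between the clones.

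The 31 genes lie on many chromosomes, and the median fold change of the other tested genes within 5 Mb was taken as a description of each neighbourhood (GENCODE M21, GRCm38). Idi1, Pmvk and Fdps lay among genes that were lower in B04, with neighbourhood medians of -0.225 over 23 genes, -0.244 over 120 genes and -0.237 over 121 genes, and the regions of Pmvk and Fdps overlap. Ebp, Stard4 and Srebf2 lay among genes that were higher, with medians of 0.27 over 45 genes, 0.21 over 103 genes and 0.18 over 135 genes. In B64 the same 3 neighbourhoods had medians of 0.34, 0.22 and 0.14. The log2 fold changes of Ebp, Stard4 and Srebf2 themselves in B04 were 0.74, 0.79 and 0.35, above those medians. In B64 they were 0.30, 0.25 and 0.16, close to the medians, and that of Ebp was below its median. Sqle and Acat2 had neighbourhood medians of 0.091 and 0.098 in B04.

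**Figure D5:**
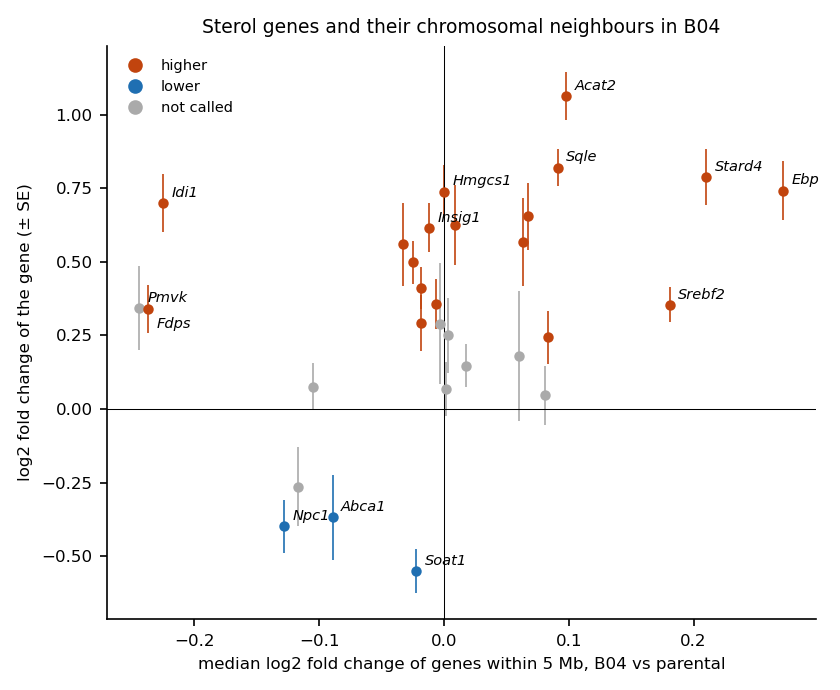
Log2 fold change of each gene in B04 with its SE (vertical axis) against the median of the tested genes within 5 Mb (horizontal axis), for 30 of the 31 genes (Abcg1 left out). Orange marks genes called higher, blue called lower and grey not called. Idi1, Fdps and Pmvk lie above 0 with neighbourhoods below 0, and Ebp, Stard4 and Srebf2 have the highest neighbourhoods.

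No fragment-length class held both parental and B64 libraries, so these lines could not be compared within a class. Among the long-fragment libraries, 19 of the 20 enzymes were higher in B04 replicate A than in the parental mean, with a median log2 ratio of 0.46 where that of all genes was -0.003. Among the short-fragment libraries, 18 of the 20 were lower in the B64 mean than in B04 replicate B, with a median of -0.35 where that of all genes was 0.001. The B64 libraries themselves differed, with enzyme medians against the parental mean of 0.13 in replicate A and 0.29 in replicate B. These medians are descriptions with no test.

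Of the 21 genes called in B04 against the parental line, 12 kept the call in all 16 alternatives, namely Acat2, Hmgcs1, Mvk, Idi1, Fdft1, Sqle, Cyp51, Nsdhl, Ebp, Srebf2, Insig1 and Stard4. Besides Soat1, Abca1 and Nr1h2, single libraries or the scale ended the calls of 6 genes. Mvd was 0.44, adjusted p = 0.0893 without parental replicate A and 0.50, adjusted p = 0.0645 without B04 replicate A. Fdps was 0.24, adjusted p = 0.0671 without parental replicate A. Dhcr7 was 0.45, adjusted p = 0.103 without parental replicate B and 0.51, adjusted p = 0.0891 without B04 replicate B. Insig2 lost its call without any 1 of the parental or B04 libraries, for example at 0.29, adjusted p = 0.121 without parental replicate A and 0.29, adjusted p = 0.128 without B04 replicate B. With fragment-length class as a block, Fdps was 0.30, adjusted p = 0.0507, Dhcr7 0.51, adjusted p = 0.103 and Insig2 0.30, adjusted p = 0.157. Abca1 lost it when any 1 library other than B04 replicate A was left out (-0.39, adjusted p = 0.196 without parental replicate B), and Nr1h2 when any 1 other than parental replicate B was left out (0.14, adjusted p = 0.489 without parental replicate A). Nr1h2 lost its B64 call without the same libraries (0.16, adjusted p = 0.548 without parental replicate A). The calls of Lbr and Npc1 were lost by limma on log2(TPM + 1), at 0.39, adjusted p = 0.0978 and -0.30, adjusted p = 0.109.

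Of the 16 genes that differed between the clones, 9 kept the call in all 16 alternatives, namely Acat2, Hmgcs1, Sqle, Cyp51, Ebp, Insig1, Stard4, Npc1 and Soat1. Of the 13 called in B64 against the parental line, none did, and Acat2 and Sqle lost it only with fragment-length class as a block. That block also cut the calls over the whole table in this comparison from 2157 to 340. How many of all called genes kept their call in every alternative was not counted for any comparison. The counts of kept genes therefore have no share over all genes to be read against. Srebf2 held its B64 call in 2 of the 16 alternatives, Ebp in 5, Nr1h2 in 6, Fdft1 in 8 and the other 9 genes in 10 to 15. Without B64 replicate A, the difference between the clones was -0.41, adjusted p = 0.0597 for Mvk, -0.26, adjusted p = 0.429 for Mvd, -0.29, adjusted p = 0.154 for Idi1, -0.13, adjusted p = 0.297 for Srebf2 and -0.21, adjusted p = 0.183 for Scap. Without B04 replicate B it was -0.54, adjusted p = 0.0613 for Dhcr7, and the calls of Mvd, Idi1, Srebf2 and Scap were lost there too. Without B04 replicate A the values were -0.33, adjusted p = 0.316 for Mvd, -0.18, adjusted p = 0.118 for Srebf2 and -0.26, adjusted p = 0.0747 for Scap, and without B64 replicate B they were -0.33, adjusted p = 0.0952 for Idi1 and -0.27, adjusted p = 0.0593 for Scap.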

How the data were processed

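RNA of the 6 libraries was sequenced as paired reads, which the authors aligned to mm10 by STAR and assigned to genes by RSEM (study's methods, submitters' processing notes). The deposited values are RSEM's expected counts of genes, which need not be whole because the program divides reads that match several genes. Of the 31 genes, 23 had whole counts (within 0.005) in every library. The deposited TPM values were scaled by the authors' RSEM run to effective length and library total. The annotation and the strand setting are not given in the sources used here. Symbols and coordinates were taken from GENCODE M21 (GRCm38).

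Groups were taken from the sample titles. Expected counts were rounded, and DESeq2 (version 1.42.0, under R 4.3.3), which the study also used, tested them in one fit of all 6 libraries by group, with median-of-ratios size factors, independent filtering and Benjamini-Hochberg adjusted p under 0.05 over all genes tested. Normalized counts are counts divided by the size factor. The list of 42 further genes, from 43 written down, was read from the same fit. The genes, lists, markers and motifs were chosen with earlier results of these data known. Every listed gene is named, and of the further list the 6 with the smallest adjusted p in each clone. The rule for printed promoters, those with the sterol core, gave 1 gene, so others were added after the values were seen. Counting error only is covered by the limit of 3 counts.

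Alternatives were edgeR (version 4.0.16, quasi-likelihood), TMM factors, no independent filtering, at least 10 counts in 2 libraries, fits of 2 groups only, the replicate letter as a block, effective length as an offset, limma (version 3.58.1) on log2(TPM + 1) and log2(TPM + 0.1) for genes with a mean TPM of at least 1, fragment-length class as a block, and leaving out each library. Medians within a fragment-length class were added after the data were seen. The fits were run on simulated counts with 200 changed genes, the same spread setting for every gene and no effect of fragment length. That run cannot speak to small differences or to fragment length. FPKM values were not used here.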

Additional observations from a re-analysis of the deposited data

Results flagged for a closer look

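The clones were set against the same parental libraries, and the difference between their effects is the direct contrast of B64 and B04 in the same DESeq2 fit, which passed an adjusted p of 0.05 for 16 of the 31 genes. On the log2 scale, B64 minus B04 was -0.617 for Acat2, -0.422 for Hmgcs1, -0.607 for Mvk, -0.387 for Mvd and -0.313 for Idi1 among the mevalonate steps. It was -0.530 for Sqle, -0.441 for Cyp51, -0.430 for Lbr, -0.440 for Ebp and -0.591 for Dhcr7 in the sterol branch. Srebf2 differed by -0.190, Scap by -0.243, Insig1 by -0.489 and Stard4 by -0.538. Npc1 and Soat1 differed the other way, by 0.782 and 0.691. For Npc1, both B04 libraries were below and both B64 libraries above the parental ones.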

How the results depend on the processing

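Groups of 2 libraries limit every test here, and with 1 library left in a group its spread is assumed to be that of the others. Fragment length moved with the comparison of B64 and the parental line, and its part cannot be told apart from that of the line. The number of the 31 genes called was 21 in B04 (16 to 25 over the 16 alternatives) and 16 between the clones (11 to 20), while the 13 of B64 against the parental line became 8 with the effective-length offset, 6 and 6 with limma on log2(TPM + 1) and log2(TPM + 0.1), 0 with fragment-length class as a block, and 3 to 10 with 1 library left out. The cause was not tested. With the letter as a replicate block, 19, 10 and 15 of the 31 genes were called in B04 against parental, B64 against parental and B64 against B04. Libraries of the same letter deviated together weakly, with correlations across 11996 genes of 0.111 (parental and B04), 0.013 (parental and B64) and -0.045 (B04 and B64), so letters were not taken as pairs.

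Over the whole table, 3181, 2157 and 3118 genes were called in these comparisons. Limma on log2(TPM + 1) called 1966, 1258 and 2054, limma on log2(TPM + 0.1) called 1968, 1244 and 2034, fragment-length class as a block called 1596, 340 and 1625, and the replicate block called 2655, 1716 and 2638. With 1 library left out the counts were 1755 to 2577, 988 to 1772 and 1696 to 2758. The share of called genes that were higher moved from 46.4% to 67.7% and 67.4% in B04 by limma with either pseudocount and from 54.3% to 68.8% and 68.6% in B64, where the fragment block gave 68.8%.

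Among the genes with a call, 1 changed sign, Abca1 in B04, at 0.004 with limma on log2(TPM + 1). The sign also changed for genes with no call. Against the parental line in B64, the values with the effective-length offset were -0.017 for Mvk, 0.189 for Lss, 0.07 for Cyp51, 0.061 for Tm7sf2, -0.037 for Lbr, -0.028 for Sc5d and 0.036 for Dhcr7. With limma on log2(TPM + 1) and log2(TPM + 0.1) they were 0.003 and 0.004 for Ggps1, 0.239 and 0.245 for Lss, 0.104 and 0.105 for Cyp51, 0.095 and 0.1 for Tm7sf2, 0.072 and 0.078 for Dhcr7, and 0.016 and 0.021 for Abca1. With the fragment block they were -0.164 for Hsd17b7, 0.15 for Mylip and 0.185 for Abca1. Hsd17b7 was -0.002 with TMM factors and -0.005 with the replicate block, and Tm7sf2 was 0.0 with edgeR and 0.002 with the count minimum. In B04, Sc5d was -0.015 with the offset. Between the clones, limma gave -0.035 and -0.036 for Fdps, -0.041 and -0.042 for Sc5d, -0.062 and -0.062 for Insig2 and -0.023 and -0.024 for Nr1h2. The fragment block gave -0.02 for Fdps and -0.002 for Sc5d, the offset -0.013 for Sc5d and -0.027 for Insig2, and TMM factors -0.005 for Sc5d. With 1 library left out, the values that changed sign ranged in B04 -0.046 to 0.142 for Sc5d. They ranged in B64 -0.214 to 0.217 for Mvk, -0.209 to 0.009 for Ggps1, -0.087 to 0.019 for Lss, -0.099 to 0.035 for Cyp51, -0.065 to 0.062 for Tm7sf2, 0.0 to 0.134 for Lbr, -0.223 to 0.205 for Hsd17b7, -0.041 to 0.146 for Sc5d and -0.143 to 0.098 for Dhcr7. They ranged between the clones -0.079 to 0.018 for Pmvk, -0.086 to 0.118 for Fdps, -0.402 to 0.027 for Hsd17b7, -0.001 to 0.012 for Sc5d and -0.009 to 0.04 for Nr1h2.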
